A study of Homo sapiens with 5 samples.

Results

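Interferon-stimulated genes are the genes that cells switch on when interferon, or viral nucleic acid, is sensed. They were measured here in Nalm6, an established human leukaemia cell line that stems from B-lymphocyte precursors. The list holds 51 genes named by symbol. Of these, 49 were found among the 18417 genes of the array whose probe set carries exactly 1 gene symbol, and a gene with several such probe sets was represented by the one with the highest 5-array mean. STAT2 and GBP1 were not analysed here. The tested clones were 3 Nalm6 clones with a short hairpin RNA (shRNA) labelled as directed at MondoA, a glucose-responsive transcription factor encoded by MLXIP. They were set against 2 Nalm6 clones with a nonsense shRNA, called control below. Each clone gave 1 Affymetrix whole-transcript array, so the spread within a group is the spread between clones. All 5 clones carried an shRNA and grew in RPMI medium with 20% serum, 200 mg/dl glucose and gentamycin, and the labels name no interferon treatment. Expression values are RMA summaries in log2 units, differences are MondoA shRNA minus control, and errors are SD over n = 3 MondoA shRNA and n = 2 control arrays unless named otherwise.

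As background, type I interferons bind a receptor whose kinases activate a transcription factor complex that holds STAT2 and IRF9 and binds a DNA motif, the interferon-stimulated response element, in the promoters of these genes. The products include cytoplasmic sensors of foreign RNA, proteins that block viral entry, translation or release, and the ubiquitin-like modifier ISG15. Many cell types hold some of these transcripts without added interferon. Many of these genes lie beside close relatives, and signal shared between such relatives on the array was not tested.

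The target and the cell type were checked first. MLXIP read 6.40 ± 0.09 in the arrays labelled MondoA shRNA and 6.42 ± 0.00 in control, a difference of -0.03 (limma adjusted p = 0.959), so directions below refer to the label. The 8 measured markers of B-cell precursors, such as MME, PAX5 and VPREB1, read between 7.35 and 10.6 on every array. Of these, 3 stood apart between the groups, where 4.85% of all genes were higher and 5.18% lower with no overlap. The differences were -1.19 for DNTT (limma unadjusted p = 0.011), 0.91 for CD79A (0.00926) and 0.25 for CD79B (0.0056). Each had a limma adjusted p of 0.833. The part of these 3 markers in the results below was not tested. Of the markers of other blood cells, 7 of 8 for T and natural killer cells, 7 of 8 for myeloid cells and 4 of 5 for plasmacytoid dendritic cells, the main makers of interferon in blood, had means below the median gene level of 4.15. The exceptions were NKG7, CD68 and PTCRA. Detection above background was not assessed, and 19 of the 49 interferon-stimulated genes also had means below that median. The summed levels of these markers were not tested against the results below.

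No interferon-stimulated gene passed the test for single genes, and the list did not move as a block. By limma, with Benjamini-Hochberg adjustment over all genes, 0 of 49 passed an adjusted p of 0.05, where 0% of all genes did, and 5 stood at an unadjusted p under 0.05. That is 10.2% of the list, beside 3.73% of all genes. Of the 5, MX2 was higher, where 1.55% of all genes were, and XAF1, IFI44, IFI44L and HERC5 were lower, where 2.18% were. The median difference was 0.01 over the list and 0.00 over all genes. Differences lay within 0.1 log2 units of 0 for 24 genes, above 0.1 for 11 (22.4%, beside 16.8% of all genes) and below -0.1 for 14 (28.6%, beside 13.8%). The 2 ends of the list lay far apart, at 1.24 for BST2 and -1.18 for XAF1.

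**Figure D1:**
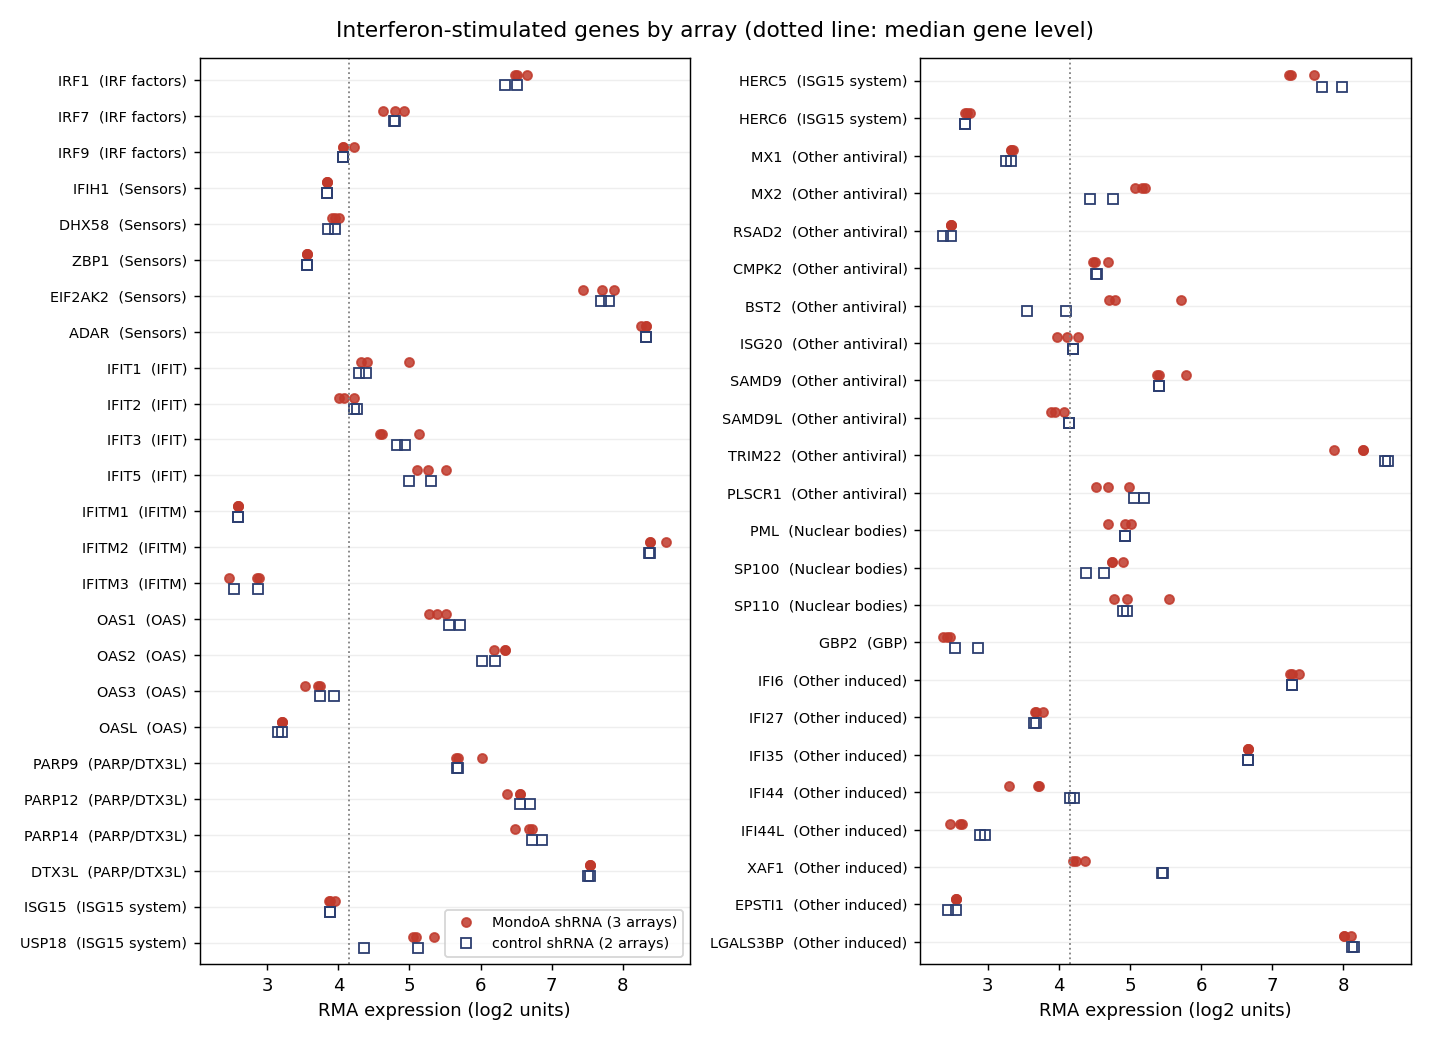
RMA expression (log2 units, x axis) of the 49 interferon-stimulated genes (rows, with their role) on each array. Filled circles are the 3 MondoA shRNA arrays, open squares the 2 control arrays, and the dotted line marks the median gene level of 4.15. The groups stand apart most for XAF1, lower in MondoA shRNA, and BST2, higher in MondoA shRNA.

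Genes whose arrays did not overlap between the groups lay more often on the lower side. Every MondoA shRNA array read below both control arrays for 10 genes, or 20.4% of the list, where 5.18% of all genes did so. They were XAF1, IFI44, IFI44L, HERC5, TRIM22, PLSCR1, OAS1, SAMD9L, LGALS3BP and GBP2. Every MondoA shRNA array read above both control arrays for BST2, MX2 and SP100, which is 6.12% of the list beside 4.85% of all genes. RMA often returns an identical value on several arrays, and such ties make overlap more likely. The same value stood on at least 3 arrays for 16 of the 49 genes, or 32.7%, and for 54% of all genes. Among the 21 interferon-stimulated genes with 5 different values, 10 were lower and 2 higher with no overlap. Over all 4301 genes of that kind, 16.6% were lower and 14.4% higher in that way. The choice of genes without ties was made after seeing the data. With 1 control array fewer, absence of overlap is easier to reach for any gene. Without control array 1, 12 genes were lower and 11 higher with no overlap, beside 15.9% and 17% of all genes. Without control array 2 the counts were 12 lower and 8 higher, beside 14.6% and 16.6%.

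The promoters of the genes at both ends are shown because interferon acts on this class of genes through a promoter motif. RefSeq windows (GRCh38.p14, 250 bases before to 50 after the gene start) were matched for 37 of the 49 genes. The core of the interferon-stimulated response element was searched as GAAA, any 2 bases and GAAA again, on both strands, with overlapping matches allowed. It stood in 24 of the 37 windows, or 64.9%, beside 3.65% of all 27305 RefSeq windows of that length. The letters of the gamma-activated site, TTCNNNGAA, which reads the same on both strands, stood in 10 windows (27%) beside 7.88% of all. XAF1 and BST2 are printed with the genes of lowest (IFI44) and highest (IFIT1) difference among the others that hold the core, and with HERC5, the lowest of those above the median gene level. Each reads 5′ to 3′ on the strand of the gene, and capitals mark the matches to the core.
XAF1, chr17:6755796-6756095, plus strand: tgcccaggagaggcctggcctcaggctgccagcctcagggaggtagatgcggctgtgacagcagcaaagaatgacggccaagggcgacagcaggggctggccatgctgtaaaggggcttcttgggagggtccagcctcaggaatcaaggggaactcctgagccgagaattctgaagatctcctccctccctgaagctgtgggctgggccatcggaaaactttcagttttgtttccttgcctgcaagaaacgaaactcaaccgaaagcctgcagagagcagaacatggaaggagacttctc
BST2, chr19:17405581-17405880, minus strand: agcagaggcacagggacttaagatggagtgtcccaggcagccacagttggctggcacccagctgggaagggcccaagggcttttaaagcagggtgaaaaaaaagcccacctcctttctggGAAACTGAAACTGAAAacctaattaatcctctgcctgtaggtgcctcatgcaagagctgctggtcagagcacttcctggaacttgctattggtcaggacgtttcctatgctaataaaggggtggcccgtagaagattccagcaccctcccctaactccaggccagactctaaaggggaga
IFIT1, chr10:89392373-89392672, plus strand: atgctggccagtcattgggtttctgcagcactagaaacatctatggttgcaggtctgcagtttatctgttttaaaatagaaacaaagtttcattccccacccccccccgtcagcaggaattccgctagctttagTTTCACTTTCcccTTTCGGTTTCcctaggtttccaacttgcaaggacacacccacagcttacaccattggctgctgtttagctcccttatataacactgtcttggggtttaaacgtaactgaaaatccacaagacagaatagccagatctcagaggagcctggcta
IFI44, chr1:78649539-78649838, plus strand: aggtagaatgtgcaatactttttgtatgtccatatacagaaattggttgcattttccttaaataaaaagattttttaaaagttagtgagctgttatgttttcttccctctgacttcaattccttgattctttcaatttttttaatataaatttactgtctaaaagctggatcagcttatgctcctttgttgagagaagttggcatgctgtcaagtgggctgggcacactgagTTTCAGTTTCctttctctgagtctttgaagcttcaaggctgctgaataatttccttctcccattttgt
HERC5, chr4:88456869-88457168, plus strand: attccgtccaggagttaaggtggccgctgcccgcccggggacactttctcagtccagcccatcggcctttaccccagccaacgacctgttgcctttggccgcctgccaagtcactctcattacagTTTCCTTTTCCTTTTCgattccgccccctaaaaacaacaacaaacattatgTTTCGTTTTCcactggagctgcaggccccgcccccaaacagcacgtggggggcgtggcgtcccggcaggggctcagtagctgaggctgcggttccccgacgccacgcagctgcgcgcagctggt
With the gene start counted as 0, BST2 held 2 overlapping matches that began at -130 and -124. In IFIT1 2 matches began at -116 and -103. In IFI44 the single match began at -18. HERC5 held 3 matches, the first at -125 and the last at -74. The core as searched does not stand in the XAF1 window. That window does hold GAAA, 1 base and GAAA again (gaaacgaaa), and spacings other than 2 bases were not searched in any gene. The core was present in 5 of 8 windows of genes with every MondoA shRNA array below control, in 1 of 2 with every one above and in 18 of 27 with overlap, so both ends of the list held windows with and without it.

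XAF1, which promotes apoptosis by opposing the inhibitor XIAP, stood lowest. It read 4.25, 4.37 and 4.20 in MondoA shRNA clones 1, 2 and 3, against 5.45 and 5.46 in the control clones. The gap between the groups was many times the spread inside either one. The difference was -1.18 ± 0.06 (SE, 95% interval -1.36 to -1.01), a 2.27-fold lower level, with an unadjusted p of 9.06e-05 that ranked 4 of 18417 genes. It did not pass after adjustment (limma adjusted p = 0.349). Leaving out any 1 array kept the difference between -1.23 and -1.15. Over the 4301 genes without ties XAF1 passed, with a limma adjusted p of 0.00387, as 1.4% of those genes did, and over all alternatives the adjusted p ran from 0.00387 to 0.828.

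BST2, or tetherin, which holds budding virus at the cell surface, stood at the other end. It read 5.71, 4.70 and 4.78 in the MondoA shRNA clones, against 4.10 and 3.55 in the control clones. Clone 1 of the MondoA shRNA group lay about 1 log2 unit above the other 2, and the control clones also differed from each other. The difference was 1.24 ± 0.43 (SE, 95% interval -0.01 to 2.48), with an unadjusted p of 0.0506 and a limma adjusted p of 0.833. It was 0.92 without MondoA shRNA array 1 and 0.97 without control array 2. BST2 thus had the wider clone spread of the pair, with an SD of 0.56 in MondoA shRNA and 0.39 in control arrays, where XAF1 had 0.09 and 0.01. The control mean of BST2, 3.83, lay below the median gene level, and whether the gene was detected there was not assessed. A range of at least 1 log2 unit over the 5 arrays was found for XAF1 and BST2 alone in the list, and for 1.79% of all genes.

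**Figure D2:**
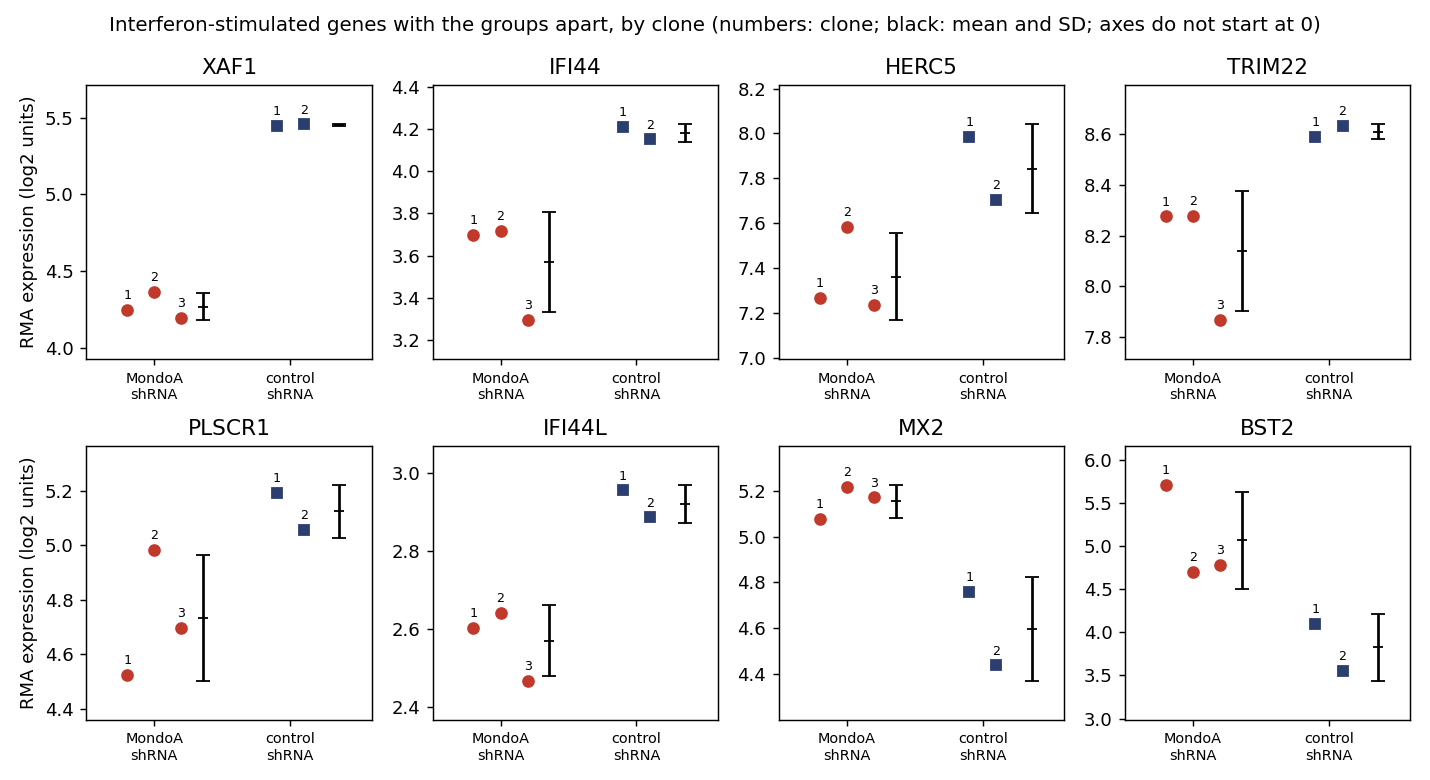
RMA expression (log2 units, y axis, a separate range for each gene) of 8 interferon-stimulated genes with no overlap between groups and a difference of at least 0.3. Red circles are the MondoA shRNA clones and blue squares the control clones, numbered by clone, with mean and SD in black. XAF1, IFI44, HERC5, TRIM22, PLSCR1 and IFI44L read lower in every MondoA shRNA clone, and MX2 and BST2 read higher.

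The sensors differed little between the groups. IFIH1 (MDA5), which recognises long double-stranded RNA, read 3.83, 3.84 and 3.83 in MondoA shRNA clones and 3.83 in both control clones. Its regulator DHX58 (LGP2) read 3.91, 4.01 and 3.96, against 3.96 and 3.86. ZBP1, a sensor of left-handed nucleic acid that triggers necroptosis, had the identical value of 3.55 on all 5 arrays. These 3 genes lay below the median gene level. EIF2AK2 (PKR), the kinase that halts translation when it binds double-stranded RNA, read 7.44, 7.87 and 7.70 in MondoA shRNA clones and 7.81 and 7.69 in control clones. ADAR, which edits double-stranded RNA and limits its sensing, read 8.25, 8.33 and 8.33, against 8.33 in both control clones. All 5 sensor differences lay within 0.1 of 0, from -0.07 to 0.05, and the groups overlapped for each. The 95% interval for EIF2AK2 ran from -0.52 to 0.37, so a moderate difference either way was not detectable with these arrays.

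The IFIT genes, whose products bind viral RNA and block its translation, pointed both ways and were highest in 1 clone of their group. IFIT1 read 4.40, 5.00 and 4.32 in MondoA shRNA clones 1, 2 and 3, against 4.29 and 4.40 in control. IFIT3 read 4.61, 5.13 and 4.59, against 4.94 and 4.83. Both were highest in MondoA shRNA clone 2, and the groups overlapped for each. For IFIT1 clone 3 lay between the control values. For IFIT3 clone 2 lay above both control clones and the other MondoA shRNA clones below them. IFIT5 read 5.10, 5.51 and 5.26 in MondoA shRNA clones and 5.30 and 4.99 in control clones. IFIT2 read 4.08, 4.22 and 4.005, against 4.22 and 4.26. Clone 2 was the highest MondoA shRNA clone for all 4 IFIT genes, beside 55.2% of all genes with 5 different values, as these 4 have. The differences were 0.23 for IFIT1, 0.15 for IFIT5, -0.10 for IFIT3 and -0.14 for IFIT2, none beyond the spread between clones by limma (adjusted p = 0.833 for IFIT1, IFIT2 and IFIT5 and 0.924 for IFIT3). Without MondoA shRNA array 2 the differences of IFIT1 and IFIT5 were 0.02 and 0.04, and those of IFIT2 and IFIT3 were -0.20 and -0.28. The 4 genes are near neighbours on chromosome 10, in the order IFIT2, IFIT3, IFIT1 and IFIT5. The 2 with values below 0 and the 2 above 0 each adjoin along it.

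The IFITM genes encode small membrane proteins that restrict viral entry, and they are neighbours on chromosome 11. IFITM2 read 8.38, 8.61 and 8.38 in MondoA shRNA clones, against 8.38 and 8.37 in control, so that clone 2 alone stood apart. IFITM1 had the identical value of 2.59 on all 5 arrays. IFITM3 read 2.89, 2.46 and 2.85 in MondoA shRNA clones and 2.53 and 2.87 in control clones, a split that did not follow the groups. IFITM1 and IFITM3 lay below the median gene level. The 3 differences ran from 0.00 to 0.08.

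The OAS genes, which make the oligoadenylate messenger that activates RNase L, pointed both ways. OAS1 read 5.28, 5.51 and 5.38 in MondoA shRNA clones, against 5.71 and 5.55 in control, with no overlap. OAS2 read 6.20, 6.34 and 6.34, against 6.21 and 6.01, and only MondoA shRNA clone 1 lay inside the control range. OAS3 read 3.72, 3.74 and 3.53, against 3.74 and 3.93. The differences were -0.24 for OAS1, -0.18 for OAS3 and 0.18 for OAS2, and these 3 genes stand next to each other on chromosome 12. Single control clones moved them: OAS2 was 0.28 and OAS3 -0.27 without control array 1, against 0.08 and -0.08 without control array 2. OAS3 was -0.11 when the third MondoA shRNA clone was left out. OASL, a relative that lacks the synthetase activity, read 3.21 in all MondoA shRNA clones, against 3.15 and 3.21 in control. OAS3 and OASL lay below the median gene level, and detection there was not assessed. None of the OAS genes passed (limma adjusted p = 0.833 for each), and the median of the 4 was -0.07.

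PARP9 and its partner DTX3L, an ubiquitin ligase, form a complex that enhances interferon signalling, and PARP14 and PARP12 are mono-ADP-ribosyltransferases. PARP9 read 5.66, 6.01 and 5.69 in MondoA shRNA clones, against 5.69 and 5.67 in control. DTX3L, next to PARP9 on chromosome 3, read 7.54 in every MondoA shRNA clone and 7.54 and 7.52 in control clones. For both the groups overlapped, and clone 2 again stood apart for PARP9. PARP12 read 6.38, 6.55 and 6.56 in MondoA shRNA clones, against 6.70 and 6.56. PARP14 read 6.48, 6.72 and 6.69, against 6.87 and 6.72. Both were highest in control clone 1 and met the MondoA shRNA values at control clone 2. Differences were 0.11 for PARP9, 0.01 for DTX3L, -0.13 for PARP12 and -0.17 for PARP14, and the median of the 4 was -0.06. The PARP9 difference was -0.01 without MondoA shRNA array 2. Without control array 1 PARP12 and PARP14 were -0.06 and -0.09, against -0.20 and -0.24 without control array 2. Without MondoA shRNA array 1 they were -0.07 and -0.09.

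Read together, the sensors, IFIT, IFITM, OAS and PARP groups (20 genes) neither moved one way nor split as widely as XAF1 and BST2. Of the 20, 10 differences lay within 0.1 of 0 (50%, beside 69.5% of all genes), 4 above and 6 below, with a range from -0.24 to 0.23 and a median of 0.00. Of the 20 genes, the groups stood apart for OAS1 alone. That is 5% lower with no overlap, beside 5.18% of all genes, and 0% higher, beside 4.85%. The other 29 genes held 9 lower with no overlap (31%, beside 5.18% of all genes) and 3 higher (10.3%, beside 4.85%). They also held all 5 genes at an unadjusted p under 0.05 (17.2%, beside 3.73%). XAF1 and BST2 are among the 29 and were picked out with earlier results of these data known. The contrast of the 20 with the 29 is thus partly set by that choice.

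**Figure D3:**
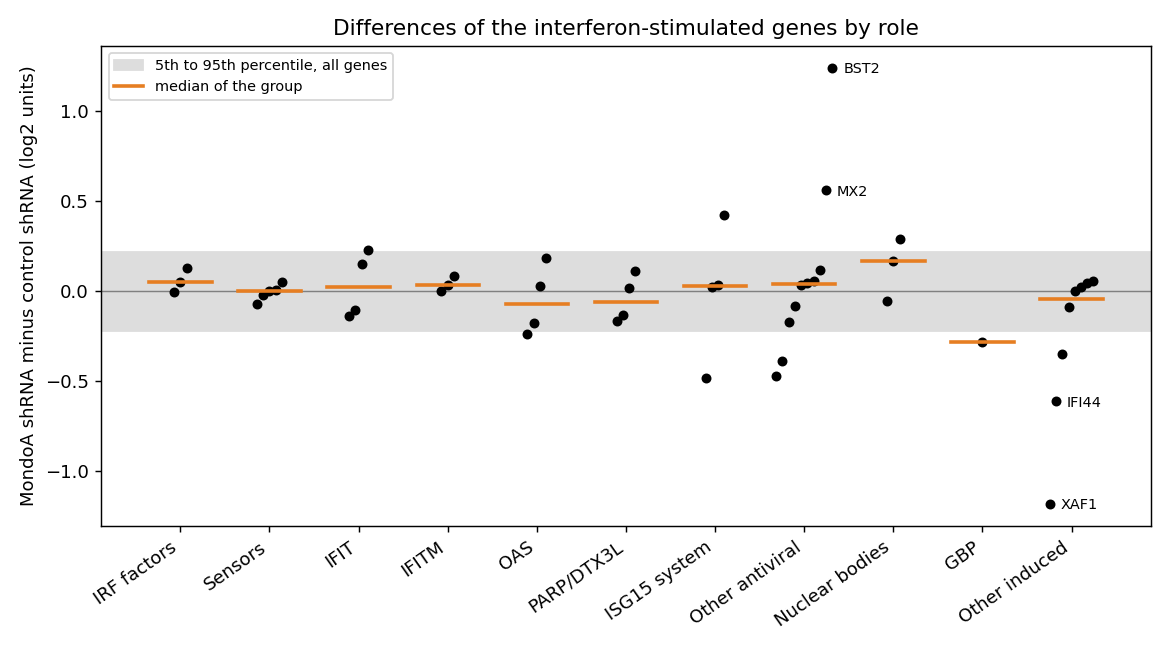
Difference of MondoA shRNA minus control (log2 units, y axis) for each of the 49 interferon-stimulated genes, grouped by role (x axis). Black points are genes, orange bars are group medians, and the grey band spans the 5th to 95th percentile of all 18417 genes, from -0.22 to 0.22. Outside the band lie 13 of the 49 genes (26.5%, beside 10% of all genes by construction), of which XAF1 at -1.18, IFI44 at -0.61, MX2 at 0.56 and BST2 at 1.24 are labelled, while the sensors and IFITM genes lie close to 0.

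Of the transcription factors, IRF1, which is induced by both interferon classes, read 6.49, 6.66 and 6.51 in MondoA shRNA clones and 6.51 and 6.34 in control clones. IRF7, the factor that amplifies type I interferon production, read 4.92, 4.62 and 4.80, against 4.78 and 4.80. IRF9, the DNA-binding partner of STAT2, read 4.22, 4.07 and 4.07, against 4.07 in both control clones. The groups overlapped for all 3, and the differences were 0.13, -0.01 and 0.05 in that order. IRF1 was 0.21 without control array 1 and 0.04 without control array 2. Leaving out MondoA shRNA array 2 gave 0.07. IRF9, which lay below the median gene level, was 0.00 without MondoA shRNA array 1 and 0.08 without array 2 or 3.

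The ISG15 system joins the modifier ISG15 to proteins through the ligase HERC5 and removes it through USP18. HERC5 read 7.27, 7.58 and 7.23 in MondoA shRNA clones, against 7.98 and 7.70 in control. The MondoA shRNA clones were lower without overlap, and the difference of -0.48 (95% interval -0.96 to -0.01) had an unadjusted p of 0.0483 and a limma adjusted p of 0.833. Its neighbour on chromosome 4, HERC6, read 2.68 to 2.75 in MondoA shRNA clones and 2.68 in both control clones. USP18 had a difference of 0.42 that came from a low reading of 4.35 in control clone 2, the other arrays reading 5.05 to 5.35. The annotation also gives USP18, and SP100 below, a further probe set that carries several gene symbols, and signal shared with other genes was not tested. ISG15 itself differed by 0.02, and both ISG15 and HERC6 lay below the median gene level.

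Among the other antiviral effectors, MX2, a dynamin-like GTPase that blocks nuclear entry of virus, was the second gene on the higher side. It read 5.08, 5.22 and 5.17 in MondoA shRNA clones, against 4.76 and 4.44 in control, a difference of 0.56 ± 0.12 (SE, unadjusted p = 0.0128, limma adjusted p = 0.833). Its neighbour MX1 on chromosome 21, which lay below the median gene level, differed by 0.05. TRIM22, a ubiquitin ligase that restricts viral transcription, read 8.28, 8.28 and 7.87 in MondoA shRNA clones, against 8.59 and 8.63. Clone 3 was the lowest, and the difference was -0.47 (unadjusted p = 0.0508, limma adjusted p = 0.833). PLSCR1, a phospholipid scramblase, read 4.53, 4.98 and 4.70, against 5.19 and 5.06, a difference of -0.39. SAMD9L, below the median gene level in both groups, differed by -0.17 without overlap. Its neighbour SAMD9 on chromosome 7 differed by 0.12 with overlap. RSAD2 (viperin), CMPK2 and ISG20 differed by 0.05, 0.03 and -0.08. RSAD2 lay below the median gene level in both groups and ISG20 in MondoA shRNA alone.

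The remaining induced genes held 3 of the 5 lowest unadjusted p values of the list. IFI44 read 3.70, 3.72 and 3.29 in MondoA shRNA clones, against 4.21 and 4.15 in control. IFI44L, its neighbour on chromosome 1, read 2.60, 2.64 and 2.47, against 2.96 and 2.89. Both were lower without overlap and lowest in clone 3, with differences of -0.61 (unadjusted p = 0.025) and -0.35 (unadjusted p = 0.00873), each at a limma adjusted p of 0.833. Both IFI44L means and the MondoA shRNA mean of IFI44 lay below the median gene level, and detection there was not assessed. LGALS3BP differed by -0.09 without overlap. IFI6, IFI27, IFI35 and EPSTI1 differed by 0.02, 0.04, 0.00 and 0.06, and IFI27 and EPSTI1 lay below the median gene level. Of the nuclear body genes, SP100 differed by 0.29 without overlap, SP110 by 0.17 and PML, which builds these bodies, by -0.05. GBP2, a guanylate-binding protein gene, differed by -0.28 on the probe set used and by -0.11 on the other one, both below the median gene level.

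The larger spread between clones lay in the MondoA shRNA group about as often as over all genes. The SD was larger among the 3 MondoA shRNA arrays for 31 of the 49 genes (63.3%, beside 61.6% of all genes) and among the 2 control arrays for 15 (30.6%, beside 28.7%). The median SD was 0.10 in MondoA shRNA and 0.04 in control arrays, and 0.08 and 0.03 over all genes, where an SD over fewer arrays tends to come out smaller. MondoA shRNA clone 2 was the highest of its group for 30 genes (61.2%, beside 29.7% of all genes). Clone 1 was highest for 9 (18.4%, beside 20.3%) and clone 3 for 2 (4.08%, beside 17.9%). No single clone was highest for 8 genes of the list and for 5908 of all 18417 genes. Among the 30 genes above the median gene level clone 2 was highest for 22, or 73.3%, beside 46.3% of all genes above that level. Measured from the 5-array mean, their median deviation was -0.06, 0.09 and -0.01 in MondoA shRNA clones 1, 2 and 3 and 0.01 and -0.01 in control clones 1 and 2. Over all 9208 genes above that level it was -0.04, 0.03, 0.00, 0.00 and -0.01. Without MondoA shRNA array 2, 14 genes were lower and 3 higher with no overlap, beside 10.4% and 8.63% of all genes, and 10 stood at an unadjusted p under 0.05 beside 5.53% of all genes.

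**Figure D4:**
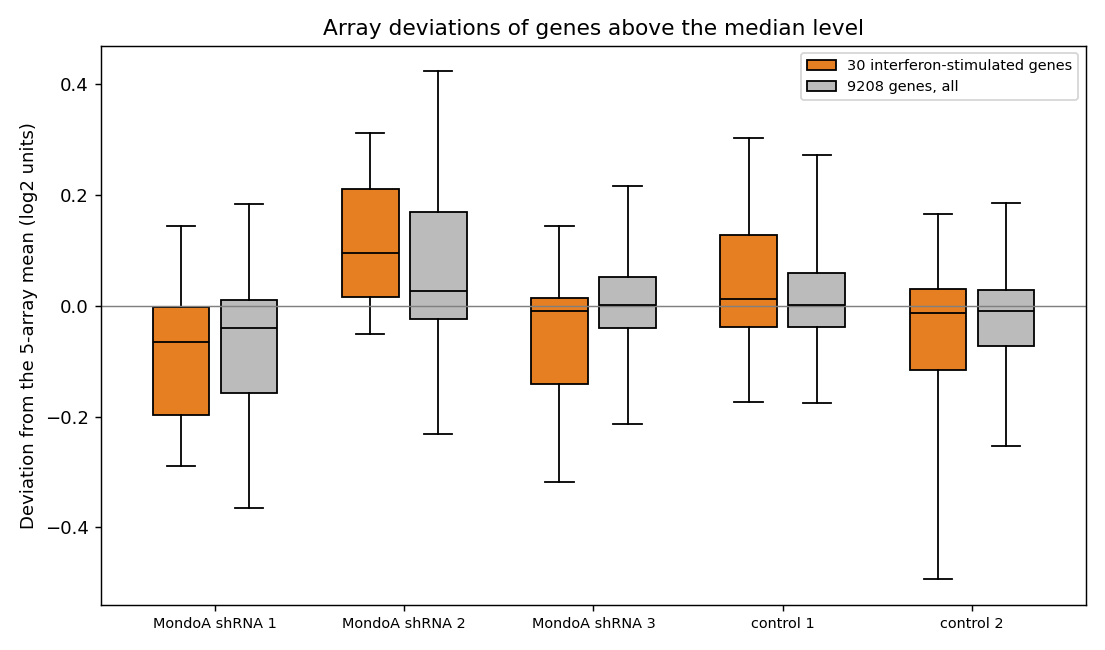
Deviation of each array from the 5-array mean (log2 units, y axis) for the genes above the median gene level. Orange boxes are the 30 interferon-stimulated genes and grey boxes all 9208 genes; boxes span the quartiles with the median as a line, and whiskers the 5th to 95th percentile. MondoA shRNA clone 2 has the highest median in both sets, 0.09 and 0.03.

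In the upstream pathway 6 of 39 measured genes (15.4%) lay outside the range from -0.22 to 0.22, beside 10% of all genes by construction. That range holds the 5th to 95th percentile of all genes. They were TLR3, MYD88, IFNGR1, CGAS, TLR9 and IFNAR2. The 6 measured interferon genes, among them IFNB1, IFNA2 and IFNG, read between 2.09 and 2.55 on every array. Of the 6 receptor chains, including IFNAR1 and IFNAR2, 0 were apart between the groups, where 4.85% of all genes were higher and 5.18% lower. The receptor differences ran from -0.26 to 0.29. The kinases JAK1, JAK2 and TYK2 and STAT3 differed by -0.09 to 0.10. In the list of further sensors and adaptors, 4 of 12 (33.3%) were higher with no overlap, beside 4.85% of all genes, and 0 were lower, beside 5.18%. TLR3, an endosomal receptor for double-stranded RNA, read 4.33, 4.59 and 4.61 in MondoA shRNA clones, against 4.12 and 4.09, a difference of 0.40 (unadjusted p = 0.0232, limma adjusted p = 0.833). The adaptor gene MYD88 differed by 0.33, the cytosolic DNA sensor CGAS by 0.25 and TLR9 by 0.23. All 4 went with higher readings in each MondoA shRNA clone, while RIGI, the sensor of 5′-triphosphate RNA, differed by -0.11 with overlap. Of the brakes on the pathway the phosphatase gene PTPN6 differed by 0.07 (unadjusted p = 0.0493, limma adjusted p = 0.833). Over all 39 measured pathway genes 5 were higher with no overlap (12.8%, beside 4.85% of all genes) and 2 lower (5.13%, beside 5.18%). At an unadjusted p under 0.05 stood 2 of them (5.13%, beside 3.73%), 0 passed the limma adjusted threshold, and the median difference was 0.00.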

How the data were processed

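RNA of 5 Nalm6 clones was measured on 5 arrays. The authors summarised the probes with RMA in Affymetrix Expression Console 1.1, per the submitters' processing notes, and deposited log2 values of 33297 probe sets. The log base is not stated and was taken as 2. Per the labels, 200 ng of RNA was labelled. Genome build and array batches are not given in the sources used here. Precision is limited by the number of arrays.

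Gene names came from the platform annotation. Of the probe sets 19460 had 1 symbol, 1754 several and 12083 none, and the last 2 kinds were left out. RefSeq (GRCh38.p14) gave chromosomes, neighbours and promoters.

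Each gene was fitted with limma 3.58.1 (R 4.3.3; array weights with statmod 1.5.0), 3 MondoA shRNA against 2 control arrays, with empirical Bayes moderation, two-sided, adjusted over 18417 genes. The fit was tested on simulated data. The gene list, role groups and other lists were chosen with earlier results of these data known. Named with values on every array were XAF1, BST2, the factor, sensor, IFIT, IFITM, OAS and PARP groups, and other genes with no overlap and a difference of at least 0.3 or a range of at least 1. Pathway genes were named at an unadjusted p under 0.05. USP18, SP100, MYD88, CGAS, TLR9, RIGI and others outside this rule were chosen after their values were seen. The alternatives left out arrays, normalised or centred again, kept brighter genes, averaged probe sets, or changed moderation, weights, blocking or ties.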

Additional observations from a re-analysis of the deposited data

How the results depend on the processing

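Of 409 recomputed differences of the 31 genes given by array, 12 changed sign. They were in 6 genes, of which IFIT5 and PARP9 had differences above 0.1 and the others lay within 0.1 of 0. Genes with no overlap cannot change sign when 1 array is left out, so this does not measure stability. With 1 array left out, IFITM3 ran from -0.132 to 0.201, IFIT5 from -0.0064 to 0.303, IRF7 from -0.0768 to 0.0704, EIF2AK2 from -0.174 to 0.0408 and PARP9 from -0.0057 to 0.174. IFIH1 was -0.0055 with the arrays quantile normalised again and -0.0023 with them median-centred, IRF7 was 0.0072 with array weights, and IFITM3 was -0.0254 in the fit that took the replicate number as a block. That block pairs clones that share only a number. Deviations of clones with the same number correlated at -0.287 and -0.233 across genes, and array 3 of the MondoA shRNA group has no partner and adds nothing to the difference. The differences, though not the p values, are thus those found without that array.

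The number of genes past the adjusted limma threshold, 0 of 18417 (687 at unadjusted p under 0.05), was 0 to 752 with 1 array left out, 2 with quantile normalisation, 2 with centring, 3 without moderation and 60 over genes without ties. Of the interferon-stimulated genes 0 passed, 0 to 1 with 1 array left out (RSAD2 without control array 1 and EPSTI1 without control array 2, both with 3 identical MondoA shRNA values) and 1 without ties (XAF1). The fits without a control array assume that the remaining one varies like the other group. At unadjusted p under 0.05 the count of 5 was 4 to 10 with 1 MondoA shRNA array left out. It was 11 with quantile normalisation, 8 with centring, 12 with array weights and 8 without ties. The share of all genes was 3.73% in the main fit and 5.53% without MondoA shRNA array 2, the setting with 10. The 13 genes with no overlap became 16 to 23 with 1 array left out, the 3 higher ones 3 to 11 and the 10 lower ones 11 to 14. Quantile normalisation gave 5 higher. Brighter genes alone gave 6 lower of 30, beside 770 of all 9208 genes above the median gene level. All-gene shares for the remaining settings are not given here. The list median of 0.01 was -0.105 over the 21 genes without ties, where 8 differences lay above 0 and 13 below. In the full list 26 lay above 0, 20 below and 3 at 0. The median of all genes was 0.00, and 0.01 over the 4301 without ties. The cause of these shifts was not tested.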
